A study of Mus musculus with 6 samples.

Results

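The genes described here handle iron in macrophages, in its uptake, storage, export and sensing, and include Blvrb, whose enzyme reduces products of haem and flavins. They were taken as every probe set of the array table whose platform annotation names exactly 1 gene symbol, and that symbol is Slc40a1, Slc11a1, Slc11a2, Tfrc, Fth1, Ftl1, Ireb2, Aco1, Ncoa4 or Blvrb. This gave 19 of the 45037 probe sets that are not array controls, and they cover 9 of the 10 genes. Ftl1, the ferritin light chain gene, has no value here, because the 3 probe sets that name it also name other genes.

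RNA came from bone marrow-derived macrophages, on a C57BL/6 background at 17 weeks of age, of vimentin-deficient mice (3 arrays) and wild-type littermates (3 arrays). All 6 cultures were grown at normal oxygen with the supernatant of the CMG14-12 cell line, which supplies mouse macrophage colony-stimulating factor, and no sample had a further treatment. The labels call the samples of a genotype biological replicates without saying whether each is a single mouse, so p-values measure the spread between these samples. The series is about vimentin-deficient marrow transplanted into LDL receptor-deficient mice, but these arrays are of cultured cells. A value is the log2 signal of a probe set as the authors deposited it, and a difference of 1 on this scale is a doubling of signal.

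Cells take up transferrin-bound iron through the transferrin receptor (Tfrc), and the divalent metal transporter DMT1 (Slc11a2) carries it out of the endosome. NRAMP1 (Slc11a1) does the same from the phagosome. Ferritin, built from the Fth1 and Ftl1 chains, stores iron, NCOA4 delivers ferritin to the lysosome for its release, and ferroportin (Slc40a1) is the exporter of iron from the cell. The iron regulatory proteins, encoded by Aco1 and Ireb2, bind iron-responsive elements in the messengers of Tfrc, ferritin, ferroportin and a DMT1 form. Macrophages of spleen, liver and marrow recycle the iron of aged red cells through these steps. C57BL/6 mice carry a loss-of-function allele of Slc11a1, so in both genotypes its messenger is measured without a functional protein behind it.

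Vim, the targeted gene, had a mean log2 signal of 13.32 ± 0.09 (SD, n = 3) on the wild-type arrays and 7.43 ± 0.67 (SD, n = 3) on the vimentin-deficient arrays. Vimentin-deficient replicate 3 stood apart, with correlations to the other arrays of 0.975 to 0.979 across probe sets against 0.992 to 0.998 among the other 5. Values of iron and pathway genes that leaving it out moved by over 1.5 times are therefore given with and without it, as are those that passed the test without it. The 11 macrophage markers had a mean log2 signal of 12.19 to 12.45 on the vimentin-deficient and 12.16 to 12.29 on the wild-type arrays. Cd14 was higher, and Mrc1 and Cd68 lower, on every vimentin-deficient array than on any wild-type array. Their log2 fold changes were 0.75, -0.64 and -0.11, and the other macrophage markers overlapped. Over all genes 5.32% lay higher and 10.1% lower without overlap. Mrc1 rested largely on vimentin-deficient replicate 3 (11.39, against 12.84 and 12.72). Cd14 did not pass with 6 arrays (limma adjusted p = 0.249), but rose by 0.59 without replicate 3 (limma adjusted p = 0.00201). The other lists had overlapping ranges except 1. Erythroid markers (11 measured) lay at 7.22 to 7.29 against 7.29 to 7.33, neutrophil markers (8) at 7.10 to 7.21 against 7.17 to 7.24, dendritic cell markers (7) at 6.96 to 7.07 against 7.00 to 7.11, and T and NK cell markers (5) at 7.63 to 7.75 against 7.72 to 7.81. Fibroblast and stromal markers (8) lay at 7.12 to 7.21 against 7.14 to 7.22, osteoclast markers (6) at 6.93 to 7.27 against 6.95 to 7.01, mast cell and basophil markers (6) at 6.84 to 7.17 against 7.10 to 7.15, and megakaryocyte markers (3) at 7.70 to 8.65 against 8.57 to 8.75. The 5 B cell markers lay at 7.02 to 7.37 against 7.45 to 7.53, without overlap. Of these, Ighm alone did not overlap, and the other 4 B cell markers overlapped between the genotypes.

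Of the 9 iron genes, each represented by its brightest probe set, all 9 had a lower vimentin-deficient mean. The median of the 9 log2 fold changes was -0.18. Over all 13445 genes tested 60.4% had a lower mean and the median was -0.02. With all 6 arrays 0 of the 9 passed the limma test (adjusted p below 0.05 by Benjamini-Hochberg over all genes), as 0.0223% of all genes did, and 2 of the 9, Tfrc and Slc40a1, had an unadjusted p below 0.05 with a lower mean, as 4.96% of all genes did. For 4 of the 9 every vimentin-deficient array lay below every wild-type array, as for 10.1% of all genes. The gap between the groups was 0.33 log2 units for Tfrc and 0.29 for Slc40a1, but 0.00038 for Fth1 and 0.0051 for Blvrb. Without vimentin-deficient replicate 3, 3 of the 9 fell (Tfrc, Slc40a1 and Slc11a1), where 1.03% of all genes fell and 1.31% rose. Without that array the groups of 6 of the 9 did not overlap, with the vimentin-deficient arrays lower, as for 17.3% of all genes. With quality weights, which gave that array a weight of 0.226 in place of leaving it out, 0 of the 9 passed, where 0.305% of all genes fell, and the smallest limma adjusted p was 0.0601, for Tfrc.

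**Figure D1:**
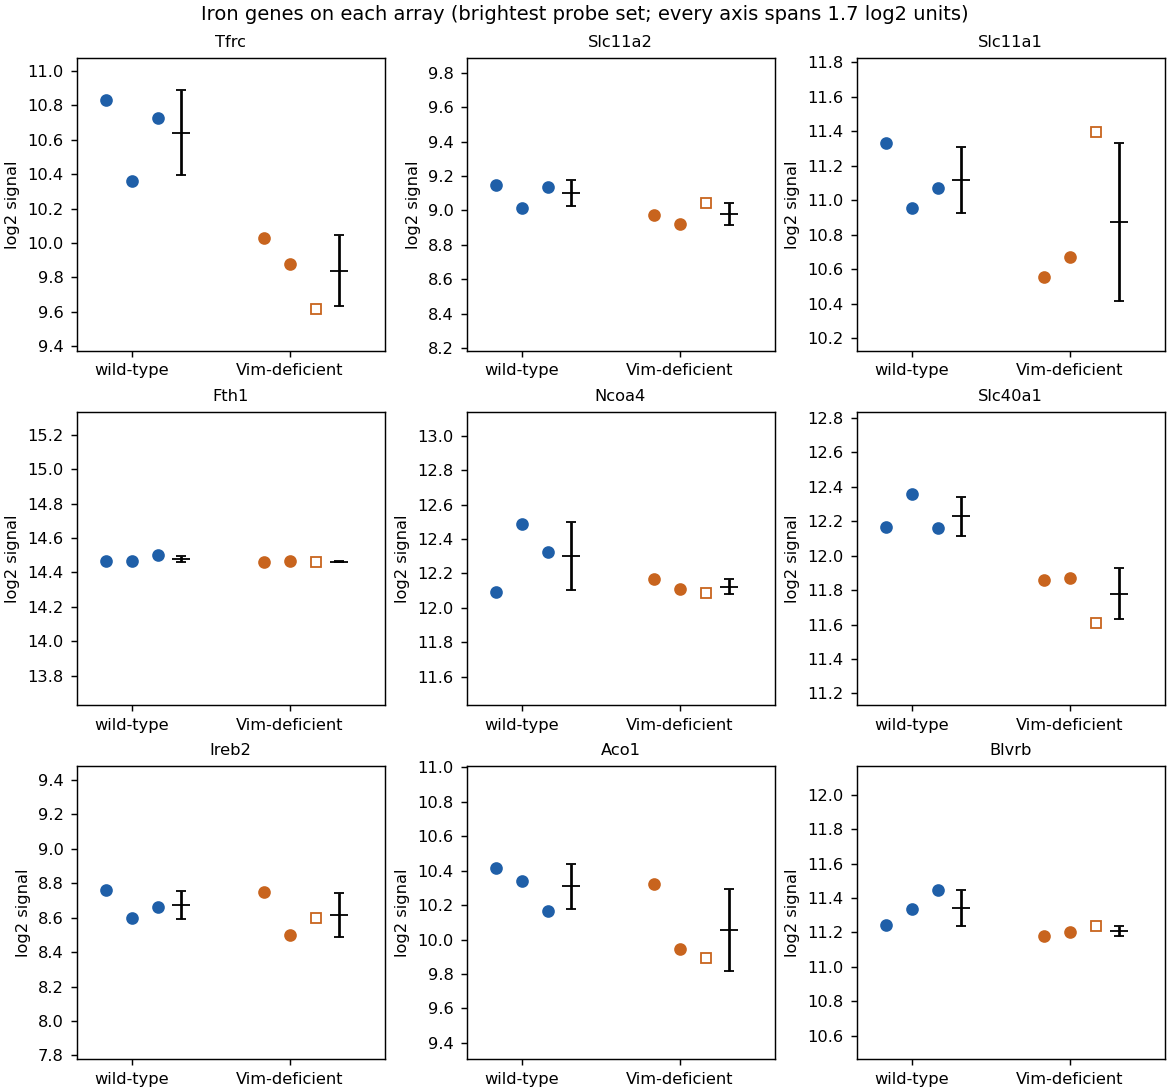
Log2 signal (y axis) of the brightest probe set of each of the 9 iron genes on each array, with wild-type arrays in blue and vimentin-deficient arrays in orange in the order of their replicate numbers. The open square is vimentin-deficient replicate 3 and the black bars are mean and SD of 3 arrays; Tfrc and Slc40a1 show a clear gap between the genotypes, Slc11a1 is split by the open square, and Fth1 lies flat near 14.5.

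Among the iron uptake genes, the transferrin receptor gene had the largest difference in signal. Tfrc read 10.03, 9.88 and 9.62 on vimentin-deficient replicates 1, 2 and 3, and 10.83, 10.36 and 10.72 on wild-type replicates 1, 2 and 3. The highest vimentin-deficient array lay 0.33 log2 units below the lowest wild-type array. The log2 fold change was -0.80 (SE 0.16, 95% interval -1.17 to -0.43), a 1.74-fold lower signal, with a limma adjusted p of 0.269 by Benjamini-Hochberg, so it did not pass. By unadjusted p Tfrc ranked 74 of the 13445 genes. Without vimentin-deficient replicate 3 Tfrc fell by 0.69 on the log2 scale (SE 0.13, limma adjusted p = 0.0192).

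The other Tfrc probe sets gave the same order of arrays by genotype. The middle one by signal read 8.62, 8.49 and 8.50 in vimentin-deficient and 9.36, 8.93 and 9.31 in wild-type macrophages, a log2 fold change of -0.66 (SE 0.12). The dimmest read 7.11, 6.95 and 6.95 against 7.61, 7.19 and 7.59, a log2 fold change of -0.46 (SE 0.12). On all 3 probe sets the vimentin-deficient arrays lay below all wild-type arrays, and wild-type replicate 2 was the lowest of its group. In the fit over all 45037 probe sets without vimentin-deficient replicate 3, the brighter 2 fell (limma adjusted p of 0.0163 and 0.0169), while the dimmest had an adjusted p of 0.0840.

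The array also carries 3 control probe sets for Tfrc, along the length of its transcript, which the choice of probe sets left out and no test used. The part nearest the 3 prime end read 8.24, 8.12 and 8.02 on the vimentin-deficient and 8.83, 8.47 and 8.76 on the wild-type arrays. The middle part read 6.86, 6.79 and 6.75 against 7.31, 6.96 and 7.23, and the part nearest the 5 prime end 6.85, 6.68 and 6.67 against 7.34, 6.90 and 7.24. The groups did not overlap on any of them, and the mean differences were -0.56, -0.37 and -0.43. The 3 prime part lay 1.36 to 1.44 log2 units above the 5 prime part on the vimentin-deficient and 1.49 to 1.56 on the wild-type arrays. The same difference for the Pcx controls overlapped between the genotypes, at 0.61 to 0.86 against 0.66 to 0.75.

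**Figure D2:**
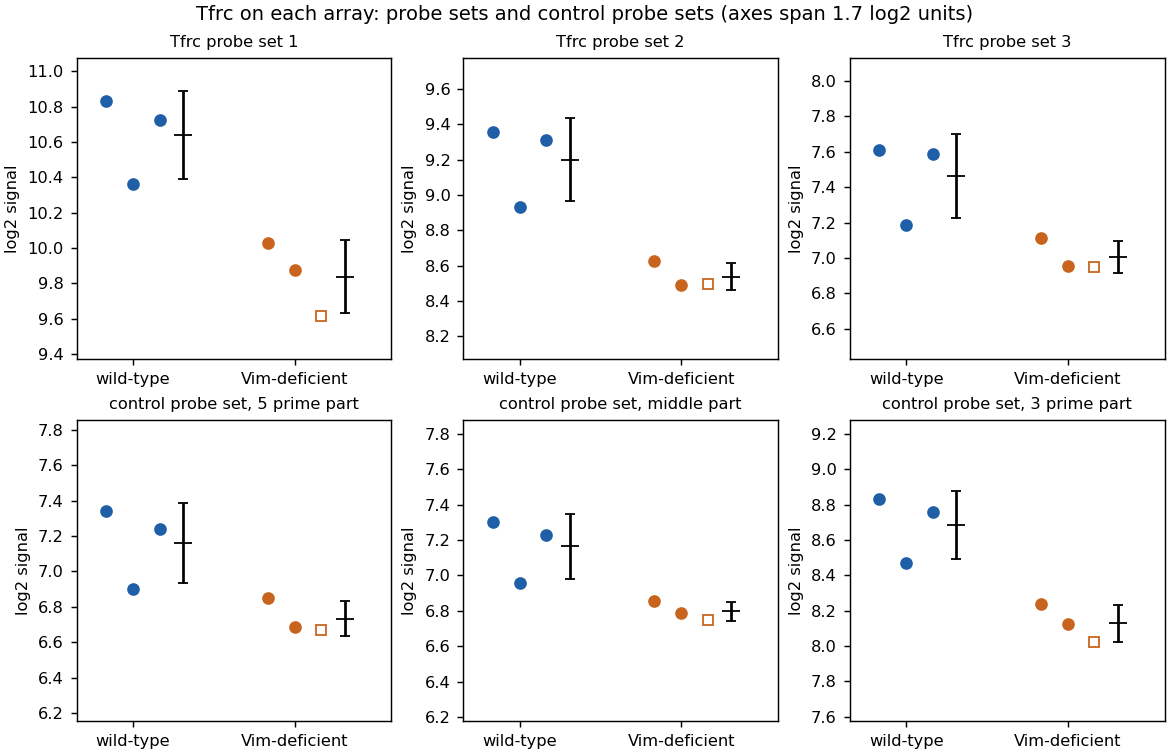
Log2 signal (y axis) of Tfrc on each array for its 3 probe sets, numbered by signal, and for the 3 control probe sets along the transcript; blue is wild-type, orange vimentin-deficient, the open square vimentin-deficient replicate 3, and the black bars mean and SD of 3 arrays. In all 6 panels the vimentin-deficient arrays lie below the wild-type arrays, and the middle blue point, wild-type replicate 2, is the lowest of its group.

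Tfrc is known to be high in dividing cells and in erythroid precursors, and both readings were set beside it. The mean of 14 proliferation genes, a list written after values were seen, was set against its mean over the wild-type arrays. It differed from that mean by 0.51, 0.28 and -2.10 log2 units on vimentin-deficient replicates 1, 2 and 3, where Tfrc differed by -0.61, -0.76 and -1.02. Tfrc was thus lower on vimentin-deficient replicates 1 and 2, where proliferation genes were higher, and lowest on replicate 3, where they were lowest. Within the wild-type arrays, replicate 2 was lowest in both, at -0.28 for Tfrc and -0.31 for the proliferation list. Among erythroid markers Ank1 and Epor gave the highest signals, and the globin gene Hba-a1 read 7.61 ± 0.04 (SD, n = 3) on the vimentin-deficient and 7.69 ± 0.02 (SD, n = 3) on the wild-type arrays, beside array medians of 7.23 to 7.25. Hba-a1, Epor, Tfr2 and Rhag were lower on every vimentin-deficient array than on any wild-type array, and the other erythroid markers overlapped. Lower without overlap were also 10.1% of all genes tested and 8.59% of all probe sets. Tfr2, with means of 7.195 and 7.276, lay near the array medians. Rhag, with 5.96 and 6.00, lay below the level required for testing genes, and background cannot be separated at these levels. Epor, the erythropoietin receptor gene, had a log2 fold change of -0.25 with 6 arrays, which did not pass (limma adjusted p = 0.502), and fell by 0.32 on the log2 scale without vimentin-deficient replicate 3 (limma adjusted p = 0.0389). The part of these genes in the Tfrc result was not tested, and in bulk RNA fewer cells of a type and less RNA per cell cannot be told apart.

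The promoter windows are shown because Tfrc and Slc11a1 are the members with a changed signal in the fit of 5 arrays that have an entry in the RefSeq table used (GRCm38.p6). Each is the 250 bases before the transcript start listed farthest upstream, on the plus strand, at chr16:32608646-32608895 for Tfrc and chr1:74374953-74375202 for Slc11a1. The third sequence is a stretch of 30 bases across that Tfrc start, chr16:32608882-32608911, where the capitals mark a hypoxia response core. It was picked because it holds that motif.
Tfrc, before the start: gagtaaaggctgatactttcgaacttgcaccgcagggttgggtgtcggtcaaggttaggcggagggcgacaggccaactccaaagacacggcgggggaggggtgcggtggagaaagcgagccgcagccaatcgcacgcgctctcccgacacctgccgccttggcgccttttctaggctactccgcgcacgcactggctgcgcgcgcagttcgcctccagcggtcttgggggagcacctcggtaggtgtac
Slc11a1, before the start: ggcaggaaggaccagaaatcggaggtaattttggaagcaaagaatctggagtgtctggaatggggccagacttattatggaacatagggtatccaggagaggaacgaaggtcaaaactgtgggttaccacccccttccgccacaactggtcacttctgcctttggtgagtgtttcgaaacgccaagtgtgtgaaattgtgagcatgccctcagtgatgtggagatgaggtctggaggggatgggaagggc
Tfrc, across the start: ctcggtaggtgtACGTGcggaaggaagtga
Each 250-base window of all 32851 in the table was searched on both strands for 4 motifs. These were the E-box CACGTG, the hypoxia response core ACGTG (which every E-box match also holds), the antioxidant response core TGACNNNGC and the AP-1 site TGANTCA. They occur in 6.02%, 16.6%, 10.2% and 6.75% of windows. None of the 4 is in the 2 windows printed, and ACGTG is in the 250 bases before a later Tfrc start, at the position shown. ACGTG is also in windows of Blvrb and Ncoa4, which did not pass the test with or without vimentin-deficient replicate 3. A window of Ncoa4 also holds the antioxidant response core. A match of letters is a description of the sequence only.

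Slc11a2, which encodes DMT1, had 4 probe sets, of which 2 had lower and 2 higher vimentin-deficient means with 6 arrays, and all 4 lower means without vimentin-deficient replicate 3. Its brightest read 8.98, 8.92 and 9.05 on the vimentin-deficient and 9.15, 9.01 and 9.14 on the wild-type arrays, which overlap, with a log2 fold change of -0.12 (SE 0.07). The next by signal read 8.57, 8.65 and 8.65 against 8.85, 8.80 and 8.82, without overlap. Its log2 fold change of -0.20 had an SE of 0.07 and, over all probe sets, a limma adjusted p of 0.704. A dimmer probe set read 7.32, 7.38 and 8.002 against 7.49, 7.42 and 7.54. Vimentin-deficient replicate 3 alone was high there. The mean difference was 0.08 with it and -0.14 without it. The dimmest, at 6.36 to 6.59 on all arrays, lay below the level required for testing genes, and its difference was 0.01 with that array and -0.04 without it. No Slc11a2 probe set passed the test with or without vimentin-deficient replicate 3.

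Slc11a1, the phagosomal metal transporter gene, was split by that array too. It read 10.56 and 10.67 on vimentin-deficient replicates 1 and 2 but 11.40 on replicate 3, and 11.33, 10.96 and 11.07 on the wild-type arrays. Replicates 1 and 2 lay below every wild-type array and replicate 3 above them all. The log2 fold change was -0.25 (SE 0.23, 95% interval -0.79 to 0.30, limma adjusted p = 0.824) with 6 arrays. Without replicate 3 Slc11a1 fell by 0.51 on the log2 scale (SE 0.11, 95% interval -0.75 to -0.26, limma adjusted p = 0.0391). It has a single probe set, so no other reading of it is available here. Slc11a1 is known to respond to interferon, and 8 interferon-response genes, a list written after values were seen, had a mean log2 signal of 9.98, 10.14 and 11.23 on the vimentin-deficient and 8.44, 8.82 and 8.65 on the wild-type arrays. Replicate 3 was thus the highest array for that list as for Slc11a1, but replicates 1 and 2 were above the wild-type arrays in the list and below them in Slc11a1. The part of these genes in the Slc11a1 result was not tested.

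The signal of the ferritin gene Fth1 showed no difference of size. The brightest Fth1 probe set read 14.46 on all 3 vimentin-deficient arrays and 14.47, 14.47 and 14.50 on the wild-type arrays. No probe set of the table had a higher signal on any of the 6 arrays, so a change at this level can be compressed. The genotypes did not overlap, but the gap was 0.00038 log2 units and the log2 fold change -0.01 (SE 0.03, 95% interval -0.10 to 0.07). The other Fth1 probe set read 14.20, 14.07 and 14.18 against 14.12, 14.17 and 14.09, a log2 fold change of 0.02 (SE 0.05, 95% interval -0.10 to 0.15). Its groups overlapped, it was 0.0082 without vimentin-deficient replicate 3, and neither probe set passed the test. Ferritin is controlled largely at translation, which these arrays do not measure, and ferritin genes have pseudogene copies whose messengers such probe sets may not tell apart.

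Ncoa4, the cargo receptor for ferritin breakdown, had overlapping groups on both of its probe sets. The brighter read 12.17, 12.11 and 12.09 on the vimentin-deficient and 12.09, 12.49 and 12.33 on the wild-type arrays, with a log2 fold change of -0.18 (SE 0.11). The other read 11.67, 11.79 and 11.70 against 11.74, 12.01 and 12.10, with a log2 fold change of -0.23 (SE 0.11, 95% interval -0.47 to 0.02). The vimentin-deficient arrays lay close together, and wild-type replicate 1 lay among them on both probe sets. Neither passed the test.

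Iron export was read from 2 probe sets of a single gene. Slc40a1, the ferroportin gene, read 11.86, 11.87 and 11.61 on the vimentin-deficient and 12.17, 12.36 and 12.16 on the wild-type arrays. The gap between the groups was 0.29 log2 units, and replicate 3 was the lowest of its group. The log2 fold change was -0.45 (SE 0.10, 95% interval -0.69 to -0.21), a 1.36-fold lower signal, with a limma adjusted p of 0.322. Without vimentin-deficient replicate 3 Slc40a1 fell by 0.36 on the log2 scale (SE 0.08, limma adjusted p = 0.0399).

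The other Slc40a1 probe set gave a similar difference. It read 11.17, 11.28 and 10.98 on the vimentin-deficient and 11.58, 11.70 and 11.66 on the wild-type arrays, again without overlap. Its log2 fold change was -0.50 (SE 0.10), and without vimentin-deficient replicate 3 it was -0.42 (limma adjusted p = 0.0262 over all probe sets), while the brighter probe set had an adjusted p of 0.0547 in that fit. Over all probe sets and 6 arrays 0 of the 19 passed, as 0.0111% of all probe sets did. Of the 19, 16 had a lower mean, as 56.9% of all probe sets did, and 6 had an unadjusted p below 0.05 with a lower mean, as 3.95% did. These 6 belong to Tfrc, Slc40a1 and Slc11a2, and probe sets of a gene are repeated readings of it on the same arrays. For 8 of the 19 the vimentin-deficient arrays all lay lower, as for 8.59% of all probe sets, and 6 of these 8 belong to Tfrc, Slc40a1 and Fth1. Without vimentin-deficient replicate 3, 4 of the 19 fell, as 0.488% of all probe sets did.

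**Figure D3:**
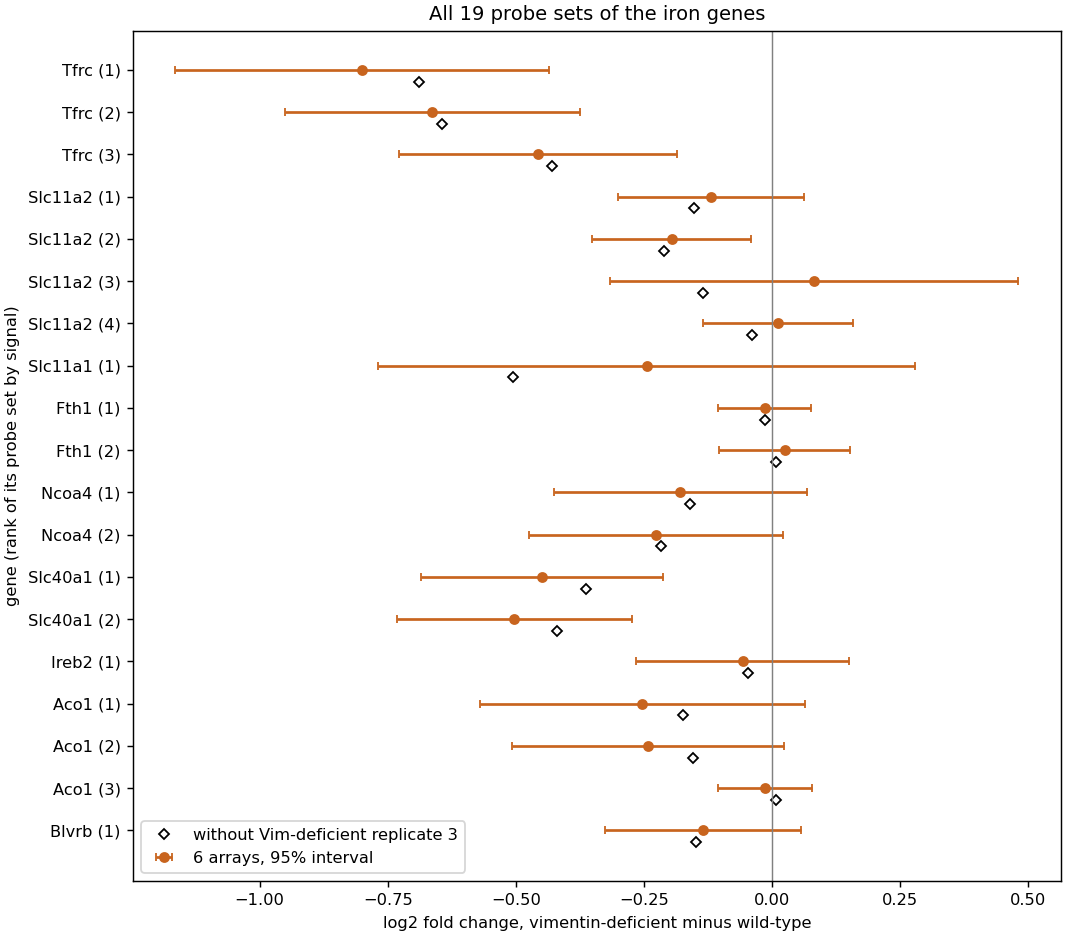
Log2 fold change (x axis, vimentin-deficient minus wild-type) of all 19 probe sets (y axis, gene and rank of the probe set by signal). Orange points and bars are the fit with 6 arrays and its 95% interval, open diamonds the fit without vimentin-deficient replicate 3; the Tfrc and Slc40a1 intervals and the second of Slc11a2 lie below 0, and Slc11a1 and the third of Slc11a2 move most when that array is left out.

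The genes of the iron regulatory proteins had smaller differences. Aco1, which encodes the protein that is either cytosolic aconitase or iron regulatory protein, read 10.33, 9.94 and 9.90 on the vimentin-deficient and 10.42, 10.34 and 10.16 on the wild-type arrays. Vimentin-deficient replicate 1 lay within the wild-type range and the other two below it. The log2 fold change was -0.25 (SE 0.14, 95% interval -0.58 to 0.07), and a dimmer probe set had -0.24 (SE 0.11), or -0.15 without vimentin-deficient replicate 3. The third Aco1 probe set, at 6.68 to 6.77 on all arrays, had -0.01, or 0.0067 without that array. Ireb2, whose product is removed when iron is plentiful, read 8.75, 8.50 and 8.60 against 8.76, 8.60 and 8.66. Its log2 fold change was -0.06 (SE 0.09, 95% interval -0.26 to 0.15), and the groups overlapped.

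Blvrb, which encodes biliverdin reductase B, an enzyme that reduces products of haem and flavins, read 11.18, 11.20 and 11.24 on the vimentin-deficient and 11.24, 11.34 and 11.45 on the wild-type arrays. The groups were separated by 0.0051 log2 units. The log2 fold change was -0.13 (SE 0.08, 95% interval -0.32 to 0.06), which did not pass the limma test.

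The rest of iron and haem handling was read from 6 lists, chosen with earlier results of these data known. Apart from the members they hold 79 tested genes, of which 47 had lower and 32 higher means, with a median log2 fold change of -0.03. With 6 arrays 0 of the 79 passed in either direction. At an unadjusted p below 0.05, 4 had lower and 4 higher means, beside 4.96% and 3.01% of all genes. Without vimentin-deficient replicate 3, 0 of the 79 fell and 2 rose, Bmpr1a and Gch1, beside 1.03% and 1.31% of all genes.

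Of 12 tested genes of iron import and endosomal release, 9 were lower and 3 higher, with a median of -0.08. Hfe, whose product binds the transferrin receptor and is mutated in haemochromatosis, read 9.87, 10.02 and 9.89 on the vimentin-deficient and 10.09, 10.30 and 10.33 on the wild-type arrays. Its groups did not overlap, and the difference of -0.31 (SE 0.10) had a limma adjusted p of 0.495. Snx3, a sorting nexin that returns the transferrin receptor to the cell surface, had -0.20 (SE 0.08), or -0.13 without vimentin-deficient replicate 3. Slc39a14, which encodes a transporter of free iron and zinc, had 0.23 (SE 0.12), or 0.08 with the mean of all its probe sets. Steap3, the endosomal ferric reductase gene, had 0.10 (SE 0.09) with overlapping groups, and 0.19 without vimentin-deficient replicate 3, where its groups did not overlap.

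Of 15 genes of iron storage, chaperones and mitochondrial iron, 6 were lower and 9 higher, with a median of 0.02. Slc25a37, which encodes the mitochondrial iron importer mitoferrin 1, read 8.75, 8.57 and 9.64 on the vimentin-deficient and 8.58, 8.58 and 8.65 on the wild-type arrays. Only vimentin-deficient replicate 3 was high, 0.98 log2 units above the mean of the other two, and the log2 fold change of 0.38 became 0.06 without it. Its paralogue Slc25a28 had 0.16 (SE 0.10) and the mitochondrial transporter gene Abcb8 -0.27 (SE 0.15). Both rested largely on that array, with 0.06 for Slc25a28 and -0.09 for Abcb8 without it. The mitochondrial chaperone gene Hspa9 had 0.27 (SE 0.14).

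Of 13 genes of iron export and systemic control, 6 were lower and 7 higher, with a median of 0.02. Bmpr1a, a receptor of the bone morphogenetic proteins that drive hepcidin in liver, read 9.49, 9.28 and 9.64 on the vimentin-deficient and 8.97, 9.02 and 8.97 on the wild-type arrays. The vimentin-deficient arrays all lay higher. The difference of 0.48 on the log2 scale (SE 0.10) had a limma adjusted p of 0.279, and Bmpr1a rose by 0.40 without vimentin-deficient replicate 3 (limma adjusted p = 0.0389). Bmpr2, a receptor of the same pathway, had -0.19 (SE 0.07) with no overlap, and Id1, a target of that pathway, 0.16 (SE 0.08). The Bmpr1a and Bmpr2 values are those of the brightest probe set of each. With 6 arrays the mean of all probe sets gave 0.33 for Bmpr1a and -0.03 for Bmpr2.

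Of 9 genes of iron regulatory protein control and transcripts known for iron-responsive elements, 7 were lower and 2 higher, with a median of -0.03. Fbxl5, the iron-sensing subunit of the ligase that removes iron regulatory proteins, had -0.03 (SE 0.07), or -0.08 without vimentin-deficient replicate 3, and the ligase subunits Skp1 and Cul1 had -0.13 (SE 0.08) and 0.11 (SE 0.08). Hif1a, the hypoxia-inducible factor gene, read 11.04, 10.64 and 10.78 against 10.82, 10.58 and 10.52, a log2 fold change of 0.18 (SE 0.13) with overlapping groups. The mean of all Hif1a probe sets gave 0.10. None of the 9 passed the limma test.

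Of 23 genes of haem uptake, synthesis and breakdown, 17 were lower and 6 higher, with a median of -0.05, and 6 lay lower without overlap, beside 60.4% of all genes with a lower mean and 10.1% lower without overlap. Hmox1, haem oxygenase, the enzyme that frees iron from haem, read 10.93, 10.89 and 11.02 on the vimentin-deficient and 11.36, 11.06 and 11.03 on the wild-type arrays. The vimentin-deficient arrays all lay lower, but only just below wild-type replicates 2 and 3, and the difference of -0.21 (SE 0.11) had a limma adjusted p of 0.678. Cd163, the receptor for haemoglobin bound to haptoglobin, had -0.35 (SE 0.10), and Pgrmc1, a haem-binding membrane protein gene, -0.36 (SE 0.12). Without vimentin-deficient replicate 3 they had -0.23 and -0.24. Cd163 had mean log2 signals of 7.14 on the vimentin-deficient and 7.49 on the wild-type arrays, beside array medians of 7.23 to 7.25. Pgrmc1 was brighter, with means of 10.1 and 10.5. Background cannot be separated at the level of Cd163, so its values do not show whether the receptor gene was expressed. Mafg, a partner of BACH1 and NRF2, had 0.30 (SE 0.11), and Blvra, the other biliverdin reductase gene, -0.17 (SE 0.12). The Blvra value rested on vimentin-deficient replicate 3 and was -0.05 without it. Slc48a1, the haem transporter of the phagolysosome, read 10.34, 10.48 and 11.08 against 10.66, 10.66 and 10.72. As with Slc11a1, vimentin-deficient replicate 3 was above every wild-type array and replicates 1 and 2 below them all. The log2 fold change of Slc48a1 was -0.05 (SE 0.19), and -0.27 without replicate 3 (limma adjusted p = 0.138).

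Of 12 genes that guard against or promote ferroptosis, an iron-dependent death by lipid peroxidation, 7 were lower and 5 higher, with a median of -0.03. The list shares Tfrc, Fth1 and Ncoa4 with the members. Acsl4, which supplies the lipids that are oxidised, read 10.18, 9.90 and 10.38 on the vimentin-deficient and 9.85, 9.71 and 9.48 on the wild-type arrays. Its difference of 0.48 on the log2 scale (SE 0.15) had a limma adjusted p of 0.516. Gch1, whose product makes the antioxidant cofactor tetrahydrobiopterin, read 9.41, 9.41 and 9.15 against 9.06, 8.83 and 8.99. It differed by 0.37 (SE 0.10) with a limma adjusted p of 0.428, and rose by 0.45 without vimentin-deficient replicate 3 (limma adjusted p = 0.0224). In both genes the vimentin-deficient arrays all lay higher, as for 5.32% of all genes.

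**Figure D4:**
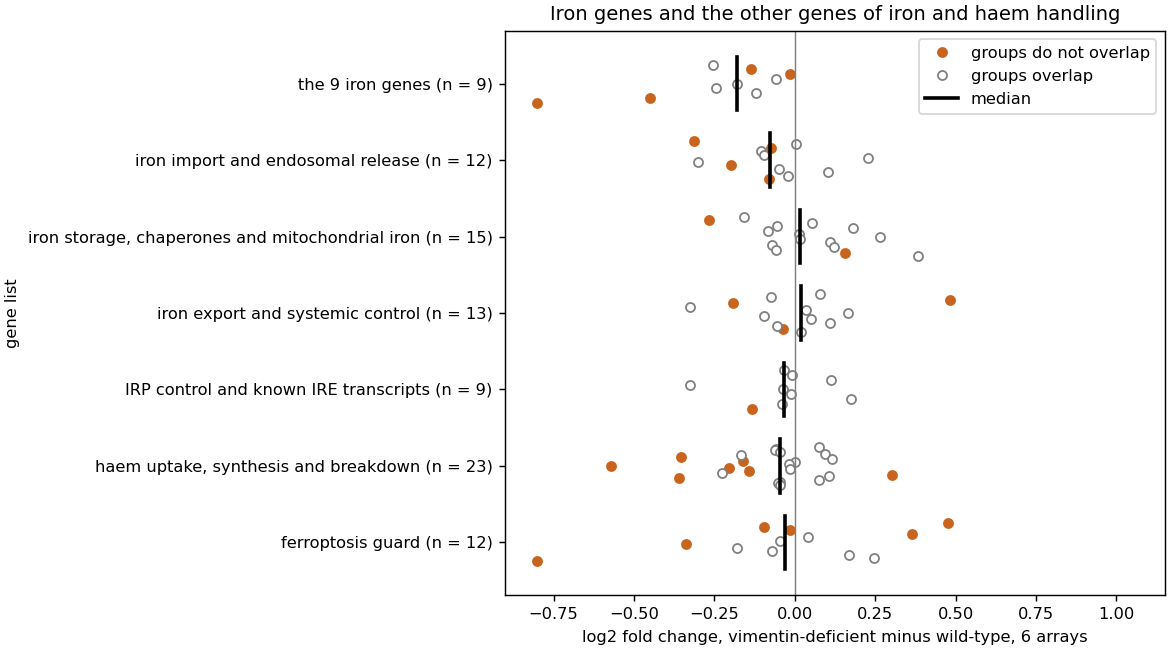
Log2 fold change (x axis, vimentin-deficient minus wild-type, 6 arrays) of the 9 iron genes and of the tested genes of 6 lists of iron and haem handling (y axis, with the number of genes). A point is a gene, filled orange where the genotypes do not overlap and open where they do, and the black line is the median; the 9 iron genes all lie below 0 while the lists spread to both sides, and Tfrc, Fth1 and Ncoa4 are drawn both as iron genes and in the ferroptosis list.

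Genes with patterns most like those of the members were sought by Pearson correlation over the 6 arrays, without a test. For Tfrc these were Mtmr10 (r = 0.993) and Ppp1r18 (0.991), for Slc40a1 Nhsl1 (0.995) and Fig4 (0.994), and for Slc11a1 Lipa (0.994) and Lamtor1 (0.991). For Slc11a2 they were Chn2 (0.990) and Gpm6b (0.987), for Fth1 Tmem242 (0.986) and Ndufs3 (0.983), and for Ncoa4 Mknk2 (0.985) and Zfp110 (0.980). For Aco1 they were Mctp1 (0.998) and Manea (0.986), for Ireb2 Copg2 (0.977) and Rnf145 (0.973), and for Blvrb Marchf2 (0.995) and Dlgap4 (0.995). The median over all tested genes of the correlation with their best partner was 0.994, so with 6 arrays such values are usual.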

How the data were processed

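Affymetrix Mouse Genome arrays measured RNA of 3 vimentin-deficient and 3 wild-type macrophage cultures, grouped by sample title. The values used are log2 probe set values as the authors deposited them. They run from 5.43 to 14.50, with array medians of 7.23 to 7.25. The summary and normalisation methods are not given in the sources used here, and background cannot be separated, so differences of dim probe sets can be compressed.

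Of 45101 probe sets, 64 were controls, and 34945 named 1 gene symbol, 932 several and 9160 none. Symbols were updated by Entrez ID for 34741 of them (GRCm38.p6). The probe set with the highest mean stood for a gene, and the 13445 of 18193 genes at or above the 40th percentile of probe set means (6.93) were tested. All 9 iron genes with a probe set passed that filter.

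Testing used limma 3.58.1 in R 4.3.3 (lmFit, eBayes with a mean-variance trend, no covariates), with Benjamini-Hochberg adjustment over all genes, or over all 45037 probe sets for probe set results. The call threshold was an adjusted p of 0.05. Standard errors are limma's moderated values, intervals are 95% intervals, and SDs are between arrays. The procedure was tested on simulated data. Values with no test are named as such. The number of arrays limits precision.

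The members, lists and named genes were chosen with earlier results of these data known. Named are all members, the 3 genes with the smallest p of each list, 8 fixed genes of iron and haem handling, Vim, the 2 genes most like each member, and the brightest markers where they touch a result. Hba-a1, Tfr2, Rhag, Cd14, Mrc1 and Cd68 were named after values were seen. The proliferation and interferon-response lists, both printed promoter windows and the Tfrc stretch were also chosen after values were seen. Alternatives covered normalisation, filter, probe set rule, variance model, weights, the replicate block, thresholds and each array left out.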

Additional observations from a re-analysis of the deposited data

How the results depend on the processing

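Quantile normalization, median centring, both filters, both rules for several probe sets, both variance models, quality weights, the replicate block and an adjusted p of 0.1 left the number of iron genes past the threshold at 0 with 6 arrays. At an unadjusted p of 0.05 the counts were 2 iron genes, 6 iron probe sets, 8 genes of the 6 lists and 1072 of all genes. Leaving out each array in turn gave 0 to 315 calls over all genes, 0 to 3 among iron genes, 0 to 4 among iron probe sets and 0 to 2 among the lists; every count above 0 among iron genes, probe sets and lists came without vimentin-deficient replicate 3. Over all genes 3 passed, against 93 with quality weights and 0 with the replicate block. Same-numbered arrays deviated together in 1 of 3 pairs (correlations 0.50, -0.19 and 0.05), and differently numbered arrays reached 0.41 and -0.50. With so few arrays these values cannot show whether the cultures were paired. The labels do not say that the numbers pair them, so the main fit used no pairing. The replicate block changed no call of an iron gene (Tfrc -0.80, limma adjusted p = 0.502). The median over iron genes was -0.22 with probe sets without shared-transcript suffixes and between -0.18 and -0.12 without single arrays, and the mean difference of the Tfrc controls was between -0.56 and -0.37.

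Of the 9 iron genes 7 kept their direction under every alternative run. Tfrc stayed between -0.94 and -0.64, Slc40a1 between -0.49 and -0.36 and Slc11a1 between -0.51 and -0.09. The reversals were all of values near 0 or resting on a single array, and their cause was not tested. With the mean of all probe sets Fth1 was 0.0047 and Slc48a1 0.014. With quantile normalization the second Fth1 probe set by signal was -0.024. With quality weights the third Slc11a2 probe set was -0.082, the dimmest Slc11a2 probe set -0.050 and the third Aco1 probe set 0.0044. Leaving out each array in turn gave -0.27 to 0.099 for Slc48a1, -0.077 to 0.022 for Fbxl5, -0.12 to 0.00029 for Ireb2, -0.0019 to 0.067 for the second Fth1 probe set, -0.14 to 0.21 for the third Slc11a2 probe set, -0.039 to 0.074 for the dimmest Slc11a2 probe set and -0.029 to 0.0067 for the third Aco1 probe set.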
